A study of Mus musculus with 18 samples.

Results

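The 37 genes described here are known for their work in germ cells: 12 act in the piRNA pathway and transposon silencing, 12 act on meiotic chromosomes, 8 are germ cell regulators and 5 are other genes typical of male germ cells. They were taken by symbol as rows of a count table of 25239 gene symbols, and all 37 were found. RNA was sequenced from 18 libraries of cultured mouse stem cells, 3 in each of 6 groups that follow cells from the primed to the naive state of pluripotency. EpiSC, labelled primed stem cells, were the start; D3, D5 and D8, labelled transient, were taken at days 3, 5 and 8; rES, labelled naive, were the cells at the end; and ESC, labelled mESC, were embryonic stem cells for reference. The labels name the mouse embryo as the tissue of every library and give no strain, line, medium, transgene or treatment for any group. Nor do they state that the 3 libraries of a group came from 3 cultures; a p-value here measures the spread between samples only, which may be technical. The series' title places the work in a study of Cpt1a and lipid remodelling, and the comparisons below ask when, and how far, the RNA of the germline genes changed along the transition.

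Most genes of this kind are held silent outside the germline, by methylation of their CpG-rich promoters and by PRC1.6, a Polycomb complex in which MGA with MAX binds an E-box and E2F6 binds a site of its own. Germ cells use them to silence transposons with piRNAs, which are small RNAs carried by PIWI proteins, and to pair and recombine chromosomes in meiosis on an axis of cohesins and synaptonemal complex proteins. Naive mouse embryonic stem cells are known to transcribe some of them without entering meiosis, while primed cells, which resemble the epiblast after implantation, keep more of their promoters methylated.

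Promoters of 33 of the 37 genes were found in RefSeq on GRCm38.p6, in 40 windows of 250 bases before to 50 after a start; Piwil2, Tex15, Spo11 and Tex11 are named only. The letters searched, on both strands, were CACGTG, the E-box, which reads the same on either strand, and GCGGGA with its reverse complement TCCCGC, the E2F6 motif; the motifs can share 1 base where they adjoin. An E-box was present in 15 of the 33 genes (45.5%), against 8.91% of 17492 protein-coding genes and 8.09% of all 27025 genes with a window of that length. The E2F6 motif was present in 15 (45.5%), against 28.4% and 22.1%. Both stood in the same window for 9 (27.3%), against 3.10% and 2.32%. The median number of CpG in a window was 19 in the germline genes and 15 in protein-coding genes. The E-box was found in 6 of 10 matched piRNA genes, 5 of 10 meiotic chromosome genes, 2 of 8 regulators and 2 of 5 other genes; the E2F6 motif was found in 3, 7, 1 and 4 of them. A match is a run of letters, not a bound site.

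Below are the 120 bases before the start of 9 of these genes, 5′ to 3′ in the direction of the gene, with E-boxes and E2F6 motifs in capitals. Hormad1, Sycp3, Ddx4, Slc25a31 and Taf7l, taken from each role, show 1 or 2 E-boxes within 100 bases of the start; Dazl and Stra8, the regulators that the results turn on, show neither motif in any window; Tuba3a and Tuba3b, closely related tubulin genes, share an E2F6 motif at a like distance. 
Hormad1 (chr3:95559557-95559676, plus strand): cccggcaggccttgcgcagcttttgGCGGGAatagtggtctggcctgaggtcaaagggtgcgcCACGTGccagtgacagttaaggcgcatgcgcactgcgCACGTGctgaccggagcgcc 
Sycp3 (chr10:88459467-88459586, plus strand): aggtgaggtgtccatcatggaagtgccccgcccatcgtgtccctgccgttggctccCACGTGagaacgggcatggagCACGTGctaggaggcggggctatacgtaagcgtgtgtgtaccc 
Ddx4 (chr13:112652311-112652430, minus strand): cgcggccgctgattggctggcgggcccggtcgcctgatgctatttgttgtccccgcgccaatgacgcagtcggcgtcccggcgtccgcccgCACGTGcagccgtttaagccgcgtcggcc 
Slc25a31 (chr3:40708751-40708870, plus strand): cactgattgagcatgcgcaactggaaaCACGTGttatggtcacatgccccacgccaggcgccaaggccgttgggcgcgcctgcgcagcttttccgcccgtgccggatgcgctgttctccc 
Taf7l (chrX:134476491-134476610, minus strand): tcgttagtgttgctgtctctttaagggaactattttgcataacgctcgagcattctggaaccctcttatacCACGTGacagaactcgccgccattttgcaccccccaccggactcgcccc 
Dazl (chr17:50293621-50293740, minus strand): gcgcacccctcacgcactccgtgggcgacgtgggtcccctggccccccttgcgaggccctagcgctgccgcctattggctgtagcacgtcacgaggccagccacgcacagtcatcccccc 
Stra8 (chr6:34920828-34920947, plus strand): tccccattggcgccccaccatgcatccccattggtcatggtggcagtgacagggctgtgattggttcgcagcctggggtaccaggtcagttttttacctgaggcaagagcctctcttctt 
Tuba3a (chr6:125286082-125286201, minus strand): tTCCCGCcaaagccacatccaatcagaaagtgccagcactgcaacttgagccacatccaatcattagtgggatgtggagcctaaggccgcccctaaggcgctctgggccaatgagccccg 
Tuba3b (chr6:145615843-145615962, plus strand): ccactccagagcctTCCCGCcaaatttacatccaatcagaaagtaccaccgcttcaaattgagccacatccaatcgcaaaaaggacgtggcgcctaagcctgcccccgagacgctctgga

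**Figure D1:**
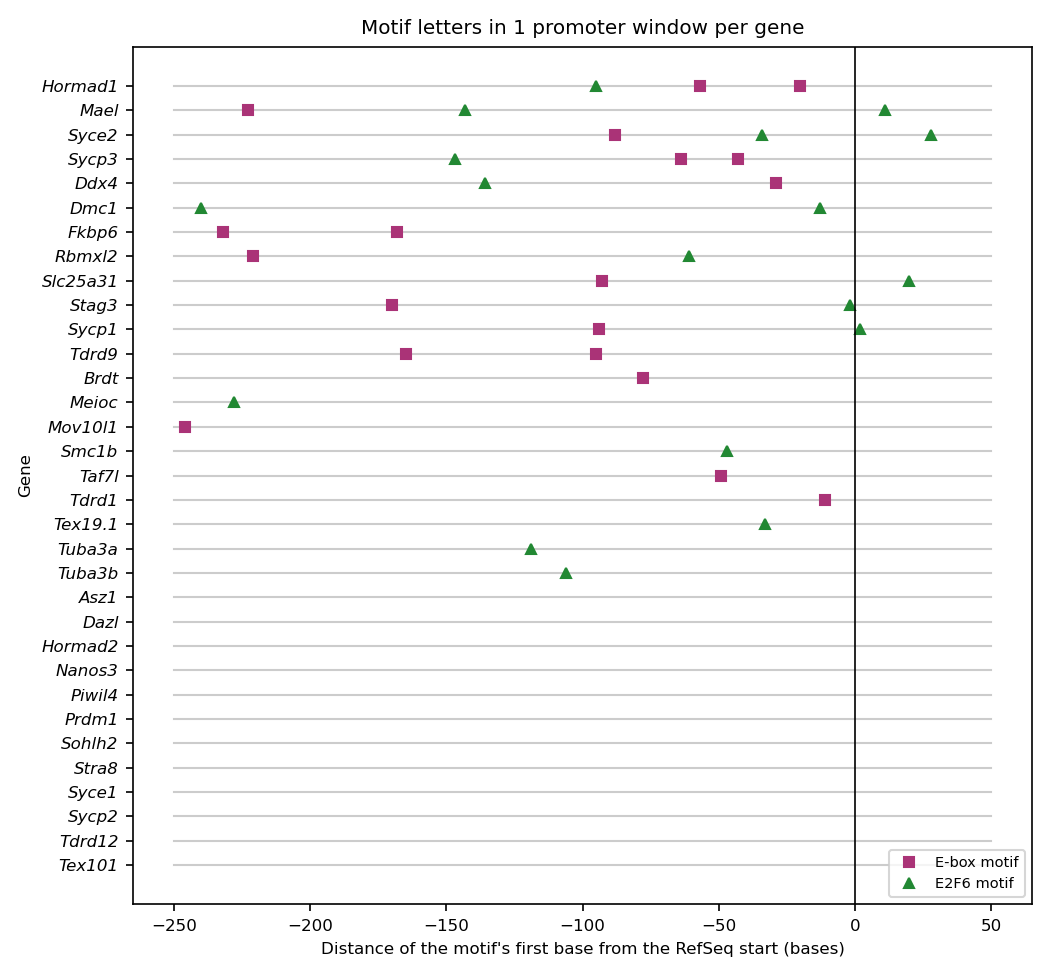
Position of each motif's first base in 1 promoter window per gene (the window with most motifs), in bases from the RefSeq start, for the 33 matched genes; squares are E-boxes and triangles E2F6 motifs, and grey lines span the window. Of 19 E-boxes 12 lay within the 100 bases before the start, as did 7 of 18 E2F6 motifs, and 12 genes held neither.

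Libraries held 58362230 to 101607352 deposited counts. Low counts bunch at 4 and 8, so 12 counts were taken as the floor, which is 0.169 to 0.197 CPM (counts scaled to a common library total) by group; counting error alone is covered by that floor. The labelled primed and naive states matched their markers. The 7 naive markers summed to 58.8 to 65.5 CPM in EpiSC, 4324 to 4388 in rES and 4443 to 4494 in ESC. The 5 primed markers summed to 1590 to 1745 CPM in EpiSC and at most 192 elsewhere, most of it Dnmt3b. Pou5f1 and Sox2, markers shared by both states, summed to 441 to 613 CPM in EpiSC, 27.7 to 48.1 at D3 and 8.83 to 21.7 at D5. Their sum was 145 to 335 CPM at D8, 903 to 915 in rES and 578 to 628 in ESC. Markers of other cell types were also measured. The 8 trophoblast markers summed to 1130 to 1248 CPM at D3, 614 to 665 at D5 and 476 to 633 at D8 but at most 22.8 in the other groups. At D5 and D8 most of that sum was Krt7. The 8 fibroblast markers summed to 237 to 325 CPM in EpiSC, 1479 to 1826 at D3, 1192 to 1312 at D5 and 2186 to 3105 at D8. Their sum was also high in rES, at 2592 to 2687 CPM, and in ESC, at 2321 to 2460, where most of it was Fn1. The 8 spermatid markers, Prm1 and Tnp1 among them, summed to at most 0.588 CPM in any library. Of 8 oocyte markers Zp3 alone reached 8.39 CPM in rES and 8.80 in ESC, no other passing 0.668 CPM in any group. The 10 markers of the somatic cells of the gonad summed to 35.1 to 36.4 CPM in EpiSC, 49.7 to 54.5 at D3 and 12.2 to 14.7 at D5. Their sum was 20.5 to 27.6 CPM at D8, 8.93 to 10.5 in rES and 9.12 to 12.0 in ESC.

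The germline genes as a group were near silent in EpiSC, D3 and D5, came on between D5 and D8, and were highest in rES. Their summed level was 55.2, 62.4 and 58.8 CPM in the 3 EpiSC libraries, 38.9, 37.4 and 41.5 at D3 and 75.2, 76.4 and 82.5 at D5. It was 550.4, 593 and 828 CPM at D8, 2269, 2299 and 2317 in rES and 1112, 1109 and 1179 in ESC. No library of rES overlapped one of ESC, and none of either overlapped one of D8. In EpiSC the sum was mostly 1 gene, Syce2, at 41.1 CPM on average. The highest group mean fell in rES for 30 of the 37 genes, in ESC for Ddx4, Tex15 and Tex11, in EpiSC for Syce2 and Dmc1, at D8 for Prdm1 and at D3 for Spo11. In bulk RNA, fewer cells that transcribe a gene and less RNA per cell cannot be told apart.

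**Figure D2:**
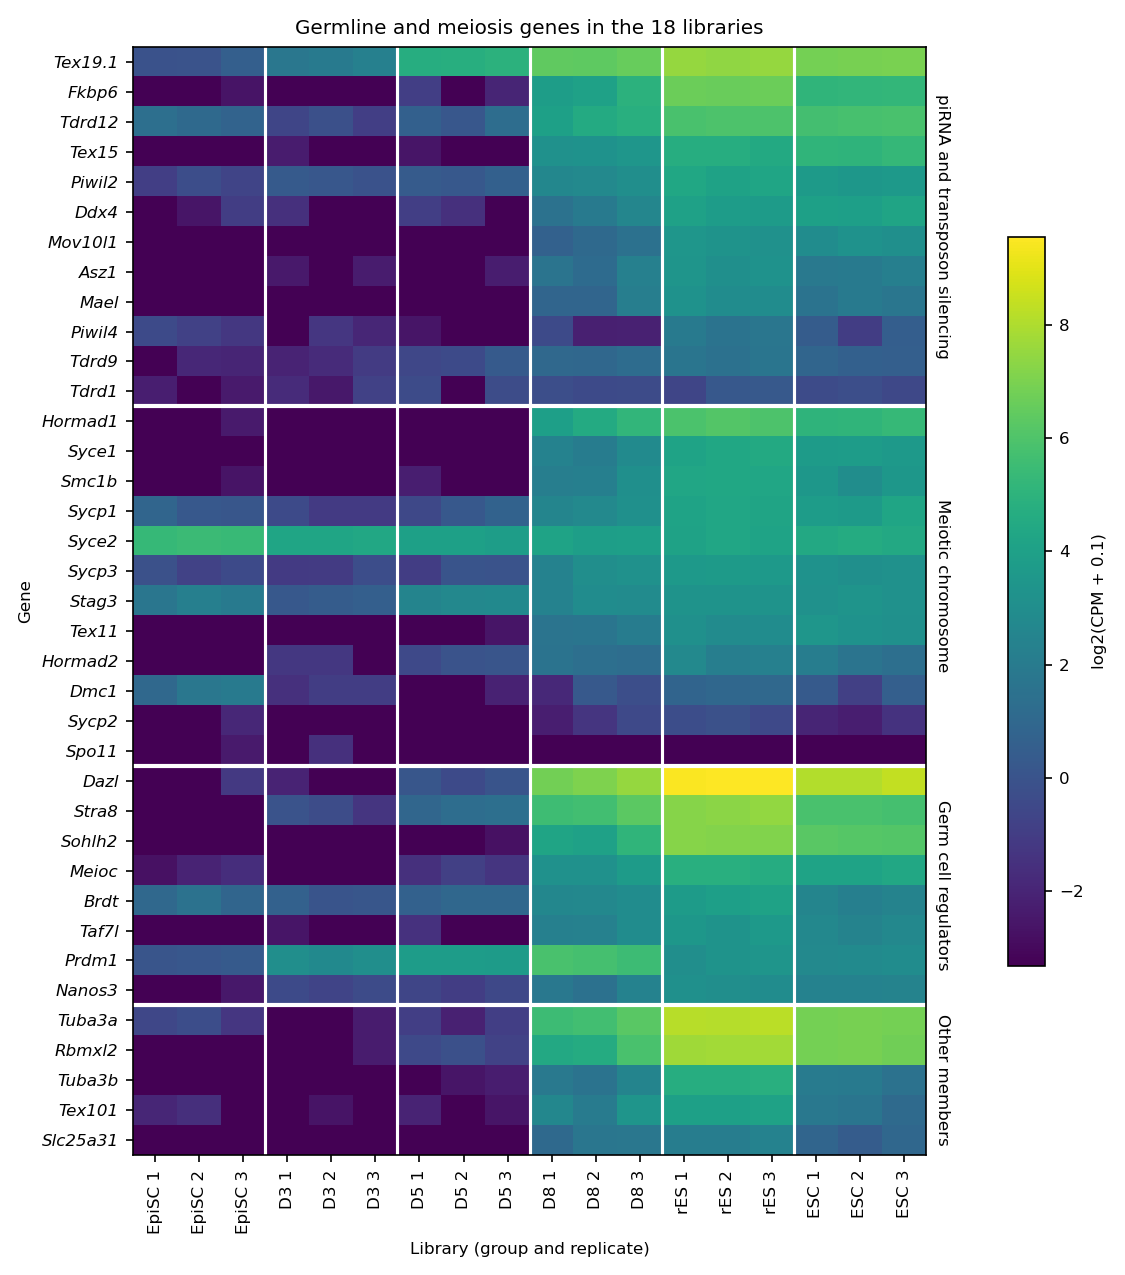
Level of each of the 37 genes (rows, by role) in each of the 18 libraries (columns), as log2(CPM + 0.1) in colour. Rows are dark through EpiSC, D3 and D5 for most genes and bright from D8 on, Syce2 being bright throughout and Spo11 dark throughout.

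In the test of every gene (edgeR's quasi-likelihood F test, Benjamini-Hochberg adjusted over 17545 genes, threshold 0.05), 36 of the 37 passed the filter on low counts and Spo11 did not. A gene silent at the start passes that filter only through the group where it is high, so these counts describe the genes and are read only against all genes tested. At D3 7 of 36 were called higher than in EpiSC and 9 lower, where 34.1% and 30.2% of all genes were; with the 2 groups fitted alone 4 were higher. At D5 15 were higher and 4 lower (background 37.7% and 34.3%). At D8 32 were higher and 2, Syce2 and Dmc1, lower (background 42.4% and 34.5%). In rES 34 were higher and Syce2 was lower (background 31.9% and 37.5%). In ESC 32 were higher and Syce2 and Dmc1 lower (background 31.2% and 36.1%); Dmc1 lost its call under some settings, which left 1. These 5 comparisons share the EpiSC libraries.

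The median log2 difference of the 36 genes from EpiSC was 0.00 at D3, 0.66 at D5, 6.23 at D8, 7.37 in rES and 6.75 in ESC, where the median of all genes was 0.00, 0.02, 0.18, -0.09 and -0.07. With genes that had no count in a group set at the floor, it was 0.00 at D5, 4.30 at D8, 5.66 in rES and 4.56 in ESC. By steps, 15 genes were called higher at D5 than at D3 and 2 lower (background 29.9% and 29.6%), or 9 higher with those 2 groups fitted alone. From D5 to D8 33 of 36 rose and none was called lower (background 25.1% and 22%), and for 33 the 3 D8 libraries lay above the 3 of D5, as for 29.6% of all genes. From D8 to rES 27 rose and Prdm1 fell (background 32.7% and 38.4%). The first group called higher than EpiSC was D3 for 7 genes, D5 for 9, D8 for 16 and rES for 2, a count not made for all genes. Asz1, called at D3, and Taf7l, Tuba3b and Fkbp6, called at D5, averaged under the floor in those groups. Those calls and the D5 call of Meioc were lost under some settings. A first call need not mean a first appearance, as Stag3, first called at D5, averaged 3.88 CPM in EpiSC.

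**Figure D3:**
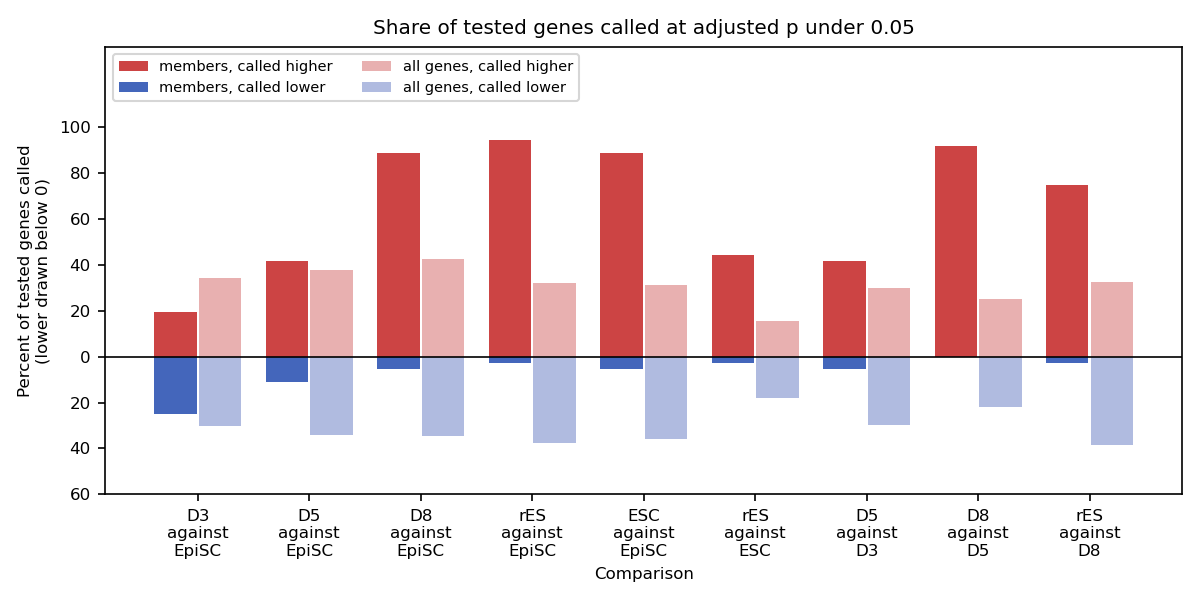
Percent of tested genes called higher (above 0) or lower (below 0) at adjusted p under 0.05 in 9 comparisons, for the 36 germline genes (dark bars) and for all 17545 genes (pale bars). The germline bars lie under the pale bars at D3 and far above them for genes called higher at D8, in rES and in ESC.

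Among the germ cell regulators, Dazl, an RNA-binding protein that germ cells need for their identity and for meiosis, went from near 0 to one of the highest levels of the 37 genes. Its levels were 0, 0 and 0.343 CPM in EpiSC, 0.147, 0 and 0 at D3 and 0.995, 0.653 and 0.927 at D5. They were 114, 136 and 184 CPM at D8, 720.4, 759 and 738 in rES and 275, 271 and 328 in ESC. All D5 libraries lay above all of EpiSC and D3, and D8, ESC and rES followed in that order without overlap. The rise from D5 to D8 was 169-fold (log2 difference 7.35 ± 0.37, adjusted p = 9.57e-11), and the rise from D8 to rES 5.11-fold (log2 difference 2.35 ± 0.27, adjusted p = 3.92e-07). Already at D5 it was called higher than in EpiSC, at 0.858 against 0.114 CPM (adjusted p = 7.10e-04).

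Stra8, which retinoic acid induces at the entry to meiosis, had no count in EpiSC. It had 0.897, 0.704 and 0.299 CPM at D3 and 1.80, 2.35 and 2.48 at D5, at least 3.34-fold and 11.6-fold above EpiSC (adjusted p = 4.59e-06 and 7.56e-09). It then stood at 46.9, 51.0 and 79.6 CPM at D8, 152, 161 and 176 in rES and 58.9, 57.3 and 54.8 in ESC. D8 and ESC overlapped, and rES lay above both. Meioc, which acts with YTHDC2 on the transcripts of cells entering meiosis, stood at 0.0482, 0.143 and 0.218 CPM in EpiSC, had no count at D3, and had 0.241, 0.441 and 0.304 CPM at D5. It reached 9.18, 9.05 and 13.3 CPM at D8, 28.3, 28.1 and 25.2 in rES and 17.6, 17.9 and 21.1 in ESC, a rise of 32.0-fold from D5 to D8 (log2 difference 4.88 ± 0.28, adjusted p = 1.36e-09). Stra8 thus had counts in every D3 library and Meioc in none. The D5 call of Meioc against EpiSC (adjusted p = 0.00998) was lost without D5 replicate 2 (0.0596), after division of all counts by 4 (0.0908) and in a fit of EpiSC and D5 alone (0.110).

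Sohlh2, a helix-loop-helix factor of early spermatogonia and oocytes, had no count in any EpiSC or D3 library and 0.0506 CPM in 1 D5 library. It had 18.04, 16.3 and 34.3 CPM at D8, 152, 144 and 140.3 in rES and 77.6, 70.9 and 68.5 in ESC, so that rES was 6.37-fold above D8 (log2 difference 2.67 ± 0.24, adjusted p = 1.22e-07). The groups were ordered D8, ESC, rES without overlap. Taf7l, a germ cell form of a general transcription factor subunit, went from no count in EpiSC to 4.77, 4.998 and 7.73 CPM at D8, 11.3, 9.76 and 11.9 in rES and 6.45, 5.29 and 6.33 in ESC, with 1 count-bearing library at D3 (0.0652 CPM) and 1 at D5 (0.257 CPM). Its level at D8 was at least 30.7-fold that in EpiSC (adjusted p = 1.41e-07), while its D5 call (adjusted p = 0.0249) rested on D5 replicate 1 and had an adjusted p of 1 without it; it was also lost without any 1 EpiSC library (0.0527 to 0.0536).

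Brdt, a bromodomain protein of spermatocytes, was present from the start. It had 1.97, 2.79 and 1.73 CPM in EpiSC, 1.501, 0.933 and 0.998 at D3 and 1.49, 1.91 and 1.87 at D5, and was lower at D3 than in EpiSC (log2 difference -0.90 ± 0.22, adjusted p = 0.00154). It then had 6.17, 6.39 and 7.53 CPM at D8, 13.4, 15.6 and 17.4 in rES and 5.77, 4.70 and 5.27 in ESC. ESC thus lay below D8 in every library pair, and rES above both. Nanos3, which protects primordial germ cells from death, had 0, 0 and 0.0779 CPM in EpiSC, 0.636, 0.520 and 0.670 at D3 and 0.545, 0.408 and 0.590 at D5. Its levels were 3.45, 2.71 and 5.17 CPM at D8, 8.79, 8.16 and 7.55 in rES and 5.12, 5.16 and 5.31 in ESC. It was called higher than EpiSC at D3 (adjusted p = 2.36e-06), missed the threshold between D3 and D5 (log2 difference -0.23 ± 0.36, adjusted p = 0.619), and rose 7.34-fold from D5 to D8 (adjusted p = 5.92e-06).

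Prdm1, known as BLIMP1, starts the primordial germ cell programme and is also made in trophoblast and other lineages. It alone among the 37 genes peaked at D8. It had 0.947, 1.05 and 1.14 CPM in EpiSC, 8.11, 6.93 and 8.18 at D3 and 13.9, 13.96 and 13.3 at D5. It had 58.1, 53.9 and 45.1 CPM at D8, 8.28, 9.90 and 10.3 in rES and 6.57, 7.11 and 7.55 in ESC. Each step up from EpiSC to D8 was without overlap, and the fall from D8 to rES was 5.52-fold (log2 difference -2.46 ± 0.12, adjusted p = 3.98e-12). Within D8 it ran against most of the other genes, being lowest in replicate 3. The summed trophoblast markers in the same D8 libraries were 633, 560.4 and 476 CPM, and their part in the level of Prdm1 was not tested. Single trophoblast markers differed in course: Cdx2 averaged 30.8, 1.77 and 1.65 CPM at D3, D5 and D8, and Krt7 271, 407 and 403 CPM. The trophoblast sum at D5 and D8 was thus mostly Krt7.

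**Figure D4:**
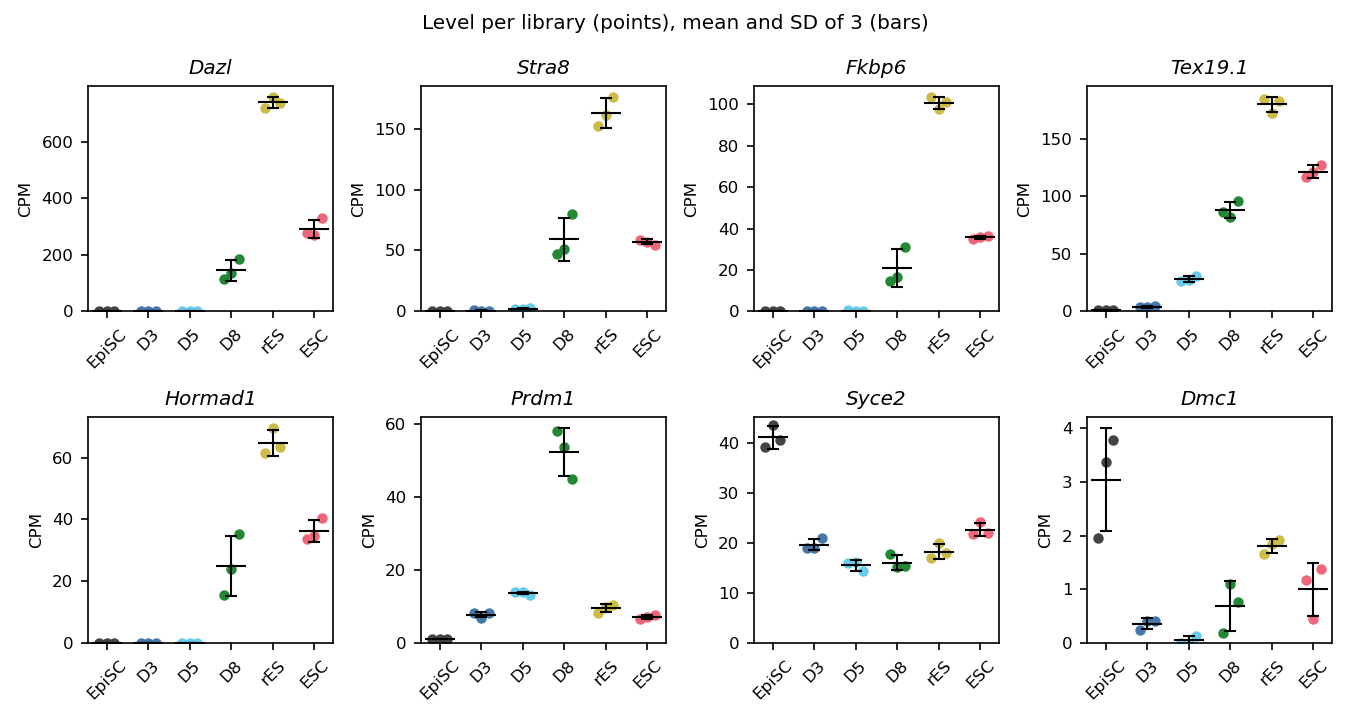
Level in CPM (each panel with its own axis from 0) of 8 germline genes in the 6 groups; points are libraries, bars the mean and SD of 3. Dazl, Stra8, Fkbp6, Tex19.1 and Hormad1 are highest in rES, Prdm1 peaks at D8, and Syce2 and Dmc1 are highest in EpiSC.

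In the piRNA and transposon silencing group all 12 genes were called higher in rES than in EpiSC, and 3 at D3, 5 at D5, 11 at D8 and 11 in ESC were. Of all genes 34.1% were higher at D3, 37.7% at D5, 42.4% at D8, 31.9% in rES and 31.2% in ESC, so the counts at D3 and D5 were near the background. Tex19.1, which restrains retrotransposons in germ cells and placenta, was already rising at D3 and had the highest level per length of them in rES. It had 0.851, 0.871 and 1.40 CPM in EpiSC, 3.38, 3.89 and 4.82 at D3 and 26.5, 27.2 and 31.1 at D5. It had 86.5, 81.7 and 96.1 CPM at D8, 185, 173 and 183 in rES and 117, 121 and 127 in ESC. Every step was without overlap: 3.87-fold to D3 (log2 difference 1.92 ± 0.16, adjusted p = 7.38e-09), 7.02-fold to D5 (2.80 ± 0.14), 3.12-fold to D8 (1.64 ± 0.12) and 2.04-fold to rES (1.03 ± 0.12). Unlike Dazl, whose largest step was from D5 to D8, its largest step was from D3 to D5. Its neighbour copy Tex19.2 matches it at 89.0% over 418 bases, so reads may have been misassigned between the pair.

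Fkbp6, a co-chaperone needed for piRNA loading, followed a later course. It had 0, 0 and 0.0623 CPM in EpiSC, no count at D3 and 0.433, 0 and 0.152 CPM at D5. It had 14.6, 16.5 and 31.3 CPM at D8, 103, 97.8 and 101.4 in rES and 34.8, 35.9 and 36.5 in ESC. The rES libraries lay 4.86-fold above D8 (log2 difference 2.28 ± 0.32, adjusted p = 7.97e-06). Its calls at D5 were not stable: against EpiSC the adjusted p of 0.0338 became 0.308 without D5 replicate 1, 0.0961 and 0.0985 without EpiSC replicates 1 and 2, and 0.120 with counts divided by 4. Tdrd12, a Tudor protein of secondary piRNA production, had 2.54, 2.04 and 1.64 CPM in EpiSC, 0.555, 0.780 and 0.428 at D3 and 1.43, 1.05 and 2.36 at D5. It fell 3.53-fold to D3 (log2 difference -1.77 ± 0.29, adjusted p = 3.66e-05) before it rose to 15.7, 23.4 and 28.4 CPM at D8, 58.8, 62.2 and 61.8 in rES and 52.8, 55.5 and 57.9 in ESC. The difference between rES and ESC missed the threshold, at 0.14 ± 0.21 (adjusted p = 0.675).

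The PIWI protein gene Piwil2, also called MILI, had counts in every library. It had 0.417, 0.729 and 0.529 CPM in EpiSC, 1.17, 1.02 and 0.841 at D3 and 1.22, 1.06 and 1.43 at D5, then 6.15, 6.60 and 8.06 at D8, 20.6, 17.2 and 18.9 in rES and 12.9, 11.4 and 12.6 in ESC. Against EpiSC it was 1.81-fold higher at D3 (adjusted p = 0.00223, or 0.0831 with the 2 groups fitted alone) and 33.9-fold in rES (adjusted p = 6.57e-13). Piwil4, or MIWI2, the nuclear PIWI protein that directs DNA methylation of transposons, stayed low: it averaged 0.476 CPM in EpiSC, 0.294 at D8, 3.30 in rES and 1.00 in ESC and was called higher than EpiSC in rES (adjusted p = 0.00871) and lower at D5 (adjusted p = 0.00263). It shares 137 exon bases with Gm10706.

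Ddx4, the VASA helicase of the germ granule, had 0, 0.0634 and 0.405 CPM in EpiSC, 0.245, 0 and 0 at D3 and 0.417, 0.245 and 0 at D5. It had 2.78, 3.77 and 5.86 CPM at D8, 16.4, 14.1 and 13.3 in rES and 16.0, 15.6 and 18.2 in ESC, so D8 lay above the earlier groups and rES overlapped ESC. It was called higher in rES than at D8 (log2 difference 1.81 ± 0.60, adjusted p = 0.0123), a call that DESeq2 did not make (adjusted p = 0.259). Tex15, which acts in piRNA-directed transposon silencing, had single low counts at D3 and D5 (0.0979 and 0.0642 CPM in 1 library each) and none in EpiSC. It had 9.03, 9.52 and 10.9 CPM at D8, 26.5, 25.8 and 22.6 in rES and 33.9, 33.3 and 38.6 in ESC. Every ESC library lay above every rES library, but the difference missed the threshold (log2 difference -0.50 ± 0.25, adjusted p = 0.140).

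Mov10l1, the helicase that starts piRNA processing, and Mael, the maelstrom protein of the germ granule, had no count in any EpiSC, D3 or D5 library. Mov10l1 had 1.498, 1.99 and 2.70 CPM at D8, 10.7, 9.76 and 9.17 in rES and 7.59, 9.25 and 8.48 in ESC, at least 10.5-fold higher at D8 than at D5 (adjusted p = 8.18e-08). Mael had 1.76, 1.72 and 4.42 CPM at D8, 9.28, 7.69 and 7.49 in rES and 2.95, 3.70 and 3.19 in ESC, at least 13.4-fold higher at D8 than at D5 (adjusted p = 9.80e-07). Asz1, a mitochondrial-surface protein of the pathway, had no count in EpiSC, 0.0816, 0 and 0.0998 CPM at D3 and 0, 0 and 0.101 at D5. It had 3.03, 2.21 and 4.75 CPM at D8, 10.3, 8.49 and 9.39 in rES and 3.62, 3.73 and 4.63 in ESC. Its D3 call (adjusted p = 0.0239) lay under the floor and was lost without D3 replicate 1 or 3 or any 1 EpiSC library (0.0524 to 0.0815) and with counts divided by 4 (0.125). Tdrd9 and Tdrd1, Tudor proteins, stayed under 5 CPM and averaged 0.110 and 0.0686 CPM in EpiSC, 2.02 and 0.685 at D8 and 2.95 and 0.910 in rES. Both were called higher than EpiSC from D5 on. The D5 call of Tdrd1 (adjusted p = 0.0352 by edgeR) came from libraries at 0.674, 0 and 0.708 CPM, which overlapped those of EpiSC. Single calls of genes under 5 CPM were not followed through the alternative settings.

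Of the 11 tested meiotic chromosome genes, 9 were higher in rES than in EpiSC, 8 at D8 and 8 in ESC. Of all genes 31.9% were higher in rES, 42.4% at D8 and 31.2% in ESC. At D3 1 of the 11 was higher than in EpiSC and 5 lower, where 34.1% and 30.2% of all genes were. Hormad1, the axis protein that marks unsynapsed chromosomes, had the highest level per length of these genes in rES. It had 0.0934 CPM in 1 EpiSC library, no count at D3 or D5, and then 15.6, 23.8 and 35.1 CPM at D8, 61.4, 69.5 and 63.5 in rES and 33.7, 34.5 and 40.3 in ESC. From D5 to D8 it rose at least 126-fold (adjusted p = 2.65e-09), and rES lay above all D8 and ESC libraries. Its relative Hormad2 kept low levels and came on earlier. It had no count in EpiSC, 0.326, 0.321 and 0 CPM at D3, 0.626, 0.882 and 0.944 at D5, 2.88, 2.56 and 2.34 at D8, 6.71, 4.40 and 4.76 in rES and 4.27, 2.997 and 2.50 in ESC. Its level was at least 4.30-fold higher at D5 than in EpiSC (adjusted p = 1.10e-05). Its step from D5 to D8 (adjusted p = 0.0211) was lost without D5 replicate 1, at 0.0746.

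Of the synaptonemal complex genes, Sycp1, the transverse filament, had 1.77, 1.08 and 0.981 CPM in EpiSC, 0.652, 0.352 and 0.356 at D3 and 0.594, 1.08 and 1.59 at D5. It was lower at D3 (log2 difference -1.44 ± 0.34, adjusted p = 0.00112) and then reached 5.73, 6.58 and 8.89 CPM at D8, 17.8, 19.9 and 18.2 in rES and 13.9, 12.9 and 19.12 in ESC. The pseudogene Sycp1-ps1 matches it at 92.4% over 2560 bases. Syce1, of the central element, had no count in any EpiSC, D3 or D5 library and had 5.13, 4.21 and 7.17 CPM at D8, 17.8, 20.1 and 22.3 in rES and 13.5, 13.7 and 12.7 in ESC, at least 27.9-fold higher at D8 than at D5 (adjusted p = 7.23e-09).

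Syce2, the partner of Syce1 in the central element, went the other way. It had 39.2, 43.6 and 40.7 CPM in EpiSC, 19.0, 19.0 and 21.0 at D3 and 16.1, 16.2 and 14.3 at D5. It had 17.73, 15.1 and 15.3 CPM at D8, 16.9, 19.9 and 17.9 in rES and 21.8, 24.1 and 21.9 in ESC. All EpiSC libraries lay above all others, 2.09-fold above D3 (log2 difference -1.06 ± 0.10, adjusted p = 2.33e-08) and 2.25-fold above rES (log2 difference -1.17 ± 0.10, adjusted p = 5.06e-09). Of its 2 promoter windows 1 holds 1 E-box and 2 E2F6 motifs, while Hormad1 and Sycp3 hold 2 E-boxes and 1 E2F6 motif each. Sycp2, the axis partner of Sycp3, averaged 0.0571 CPM in EpiSC, 0.341 at D8, 0.722 in rES and 0.178 in ESC and had no count at D3 or D5. It was called higher in rES than in EpiSC (adjusted p = 0.0247).

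Sycp3, the axial element protein, had 0.803, 0.491 and 0.654 CPM in EpiSC, 0.359, 0.367 and 0.727 at D3 and 0.401, 0.915 and 0.894 at D5. It had 5.23, 8.14 and 8.96 CPM at D8, 11.9, 12.9 and 12.2 in rES and 9.36, 8.38 and 9.21 in ESC. The early groups overlapped and D8 lay 10.1-fold above D5 (log2 difference 3.29 ± 0.31, adjusted p = 1.28e-07). Its further step to rES (adjusted p = 0.0249) was lost without D8 replicate 1 or rES replicate 2, at 0.125 and 0.0627. Its level is uncertain: 660 of its 1264 exon bases (52.2%) are shared with Chpt1 on the opposite strand, and the strand setting of the counts is not given in the sources used here. Chpt1 averaged 10.9 CPM in EpiSC, 14.8 at D5, 43.3 at D8 and 30.7 in rES, so it moved in the same direction between D5 and D8, and its part in the Sycp3 counts was not tested.

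The meiotic cohesins differed. Smc1b had 0.0623 CPM in 1 EpiSC library, none at D3 and 0.112 CPM in 1 D5 library, then 4.49, 4.63 and 8.502 CPM at D8, 19.5, 20.5 and 19.5 in rES and 11.4, 7.84 and 11.1 in ESC. It rose from D8 to rES 3.37-fold (log2 difference 1.75 ± 0.38, adjusted p = 5.95e-04). Stag3 was present throughout, at 3.24, 4.56 and 3.83 CPM in EpiSC, 1.08, 1.25 and 1.41 at D3 and 5.61, 6.42 and 6.93 at D5. It had 5.19, 7.51 and 7.45 CPM at D8, 9.66, 9.76 and 9.58 in rES and 9.04, 10.2 and 8.97 in ESC. It fell 3.11-fold to D3 (log2 difference -1.61 ± 0.19, adjusted p = 5.03e-07), regained 5.07-fold by D5 (log2 difference 2.31 ± 0.19, adjusted p = 7.80e-09) and missed the threshold from D5 to D8 (0.09 ± 0.17). Its call in rES against D8 (adjusted p = 0.0123) was lost without D8 replicate 1, at 0.0777.

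Tex11, an X-linked protein of crossover formation, had 1 low value at D5 (0.0675 CPM) and none in EpiSC or at D3. It had 2.98, 3.18 and 4.13 CPM at D8, 8.63, 7.39 and 7.66 in rES and 10.7, 9.25 and 8.62 in ESC, at least 18.1-fold higher at D8 than in EpiSC (adjusted p = 7.40e-09). Dmc1, the meiotic recombinase, had 1.96, 3.37 and 3.78 CPM in EpiSC, 0.245, 0.413 and 0.413 at D3 and 0, 0 and 0.135 at D5. It had 0.179, 1.10 and 0.770 CPM at D8, 1.65, 1.85 and 1.91 in rES and 1.17, 0.442 and 1.38 in ESC. It fell 8.51-fold from EpiSC to D3 (log2 difference -2.98 ± 0.71, adjusted p = 0.00126), was higher at D8 than at D5 (adjusted p = 0.00146), and in rES stood at -0.74 ± 0.66 on the log2 scale against EpiSC (adjusted p = 0.325). Spo11, which makes the breaks, had counts in 1 EpiSC and 1 D3 library (0.0934 and 0.245 CPM) and none in the other 16 libraries, so from D5 on it was not detectable at this depth, where a count of 0 allows up to 0.197 CPM.

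The 5 other genes are typical of testis, and all 5 were called higher at D8, in rES and in ESC than in EpiSC. Of all genes 42.4% were higher at D8, 31.9% in rES and 31.2% in ESC. Tuba3a and Tuba3b encode alpha-tubulins of the testis. Tuba3a had 0.562, 0.713 and 0.311 CPM in EpiSC, 0, 0 and 0.0998 at D3 and 0.433, 0.131 and 0.422 at D5. It had 46.3, 50.4 and 77.6 CPM at D8, 294, 284 and 303 in rES and 118, 122 and 119 in ESC. Its rise from D5 to D8 was 177-fold (log2 difference 7.34 ± 0.32, adjusted p = 1.53e-11) and from D8 to rES 5.05-fold (log2 difference 2.34 ± 0.21, adjusted p = 1.70e-08). Tuba3b had no count in EpiSC or at D3, 0, 0.0653 and 0.101 CPM at D5, 3.66, 2.91 and 5.59 at D8, 26.5, 26.2 and 28.0 in rES and 4.05, 3.86 and 2.84 in ESC. The 2 transcripts are 96.5% identical over 1447 bases, so counts may be split wrongly between them, and Tuba3a also shares 75 exon bases with 4930417O13Rik on the opposite strand.

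Rbmxl2, a retrogene for a nuclear RNA-binding protein of spermatocytes, had no count in EpiSC, 0.0998 CPM in 1 D3 library and 0.626, 0.800 and 0.489 CPM at D5. It had 22.0, 24.6 and 59.1 CPM at D8, 213, 223 and 223 in rES and 117, 123 and 109.5 in ESC. ESC lay above D8 and rES above ESC, without overlap. From D8 to rES it rose 6.24-fold (log2 difference 2.64 ± 0.29, adjusted p = 5.25e-07). Tex101, a surface protein of germ cells, had 0.161, 0.238 and 0 CPM in EpiSC and 0.144, 0 and 0.0675 at D5, then 6.20, 4.07 and 10.3 at D8, 15.8, 16.2 and 17.3 in rES and 3.47, 3.16 and 2.12 in ESC; at D3 1 library had 0.0612 CPM. All ESC libraries lay below all D8 libraries. Slc25a31, the testis form of the ADP/ATP carrier, had no count before D8 and reached 2.89 CPM at D8, 4.62 in rES and 1.63 in ESC on average.

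Against EpiSC, the comparison in which each of the 30 genes that reached 5 CPM differed most was rES for 24, ESC for Ddx4, Tex15 and Tex11, D8 for Prdm1, D5 for Syce2 and D3 for Stag3; for Dmc1, which did not reach 5 CPM, it was D5. Where both groups lay above the floor, the rise to rES was 555-fold for Tuba3a (log2 difference 9.04 ± 0.31, adjusted p = 3.18e-14), 173-fold for Tex19.1 (log2 difference 7.39 ± 0.17, adjusted p = 2.34e-16) and 29.4-fold for Tdrd12 (log2 difference 4.86 ± 0.26, adjusted p = 1.25e-11). It was 19.0-fold for Sycp3 (log2 difference 4.18 ± 0.32, adjusted p = 1.72e-09), 14.6-fold for Sycp1 (log2 difference 3.84 ± 0.32, adjusted p = 5.62e-09) and 7.16-fold for Brdt (log2 difference 2.82 ± 0.22, adjusted p = 2.37e-09). Prdm1 at D8 was 50.2-fold above EpiSC (log2 difference 5.61 ± 0.15, adjusted p = 6.10e-16), and Syce2 at D5 2.65-fold below it (log2 difference -1.41 ± 0.10, adjusted p = 3.17e-10). Of the genes with no count in EpiSC, Rbmxl2 was at least 1158-fold higher in rES, Stra8 at least 859-fold, Sohlh2 at least 767-fold, Tuba3b at least 142-fold and Syce1 at least 106-fold (adjusted p = 3.06e-10 for Tuba3b and lower for the others). Mov10l1, Asz1, Mael, Taf7l and Hormad2 were at least 27.9-fold to 57.9-fold higher. Dazl, Fkbp6, Hormad1, Smc1b, Meioc, Nanos3 and Tex101 had EpiSC means under the floor, though 1 EpiSC library each of Dazl, Meioc and Tex101 lay above it, and their rise to rES had adjusted p-values from 1.18e-13 (Dazl) to 3.91e-08 (Tex101).

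Set per kilobase of exon, so that genes can be compared with each other, the highest levels in rES were those of Tuba3a (195 CPM per kb), Dazl (193), Rbmxl2 (149), Tex19.1 (96.2) and Stra8 (90.5). Sohlh2 (61.6), Fkbp6 (57.5) and Hormad1 (37.5) followed. Lower levels included 14.05 for Tdrd12, 13.8 for Syce1, 9.75 for Sycp3, 5.24 for Sycp1, 4.84 for Ddx4, 3.58 for Piwil2 and 0.741 for Dmc1. In EpiSC the order was another: Syce2 led with 20.9 CPM per kb, and Dmc1 with 1.25 was next.

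By position in GENCODE vM21 on GRCm38, Dazl lies on chromosome 17, 50279395 to 50293636, Tex19.1 on chromosome 11, 121146143 to 121148319, Hormad1 on chromosome 3, 95559677 to 95587671, Stra8 on chromosome 6, 34920163 to 34939344, Prdm1 on chromosome 10, 44437177 to 44528501 and Syce2 on chromosome 8, 84872111 to 84888221. Tuba3a and Tuba3b lie apart on chromosome 6, 125278274 to 125286042 and 145615757 to 145621479. Counts were summed over whole genes, and all 37 are annotated as protein-coding.

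The D8 libraries differed among themselves. Of the 36 genes with a count there, 29 were highest in D8 replicate 3, where they summed to 828 CPM. In D8 replicate 1, 21 were lowest. Rbmxl2, for one, had 22.0, 24.6 and 59.1 CPM in D8 replicates 1, 2 and 3. In the same libraries the 7 naive markers summed to 945, 1144 and 1786 CPM and the 8 trophoblast markers to 633, 560.4 and 476 CPM. All 7 and all 8 of these markers were called higher at D8 than in EpiSC, as were 7 of 8 fibroblast markers and 42.4% of all genes. The fibroblast markers summed to 2186, 3105 and 2875 CPM in D8 replicates 1, 2 and 3. The 7 markers of 2-cell-like cells summed to 0 to 0.192 CPM at D5 and 6.89 to 12.2 at D8. The part of these markers' cells in the level of the germline genes was not tested. Leaving out D8 replicate 3 or any other single library left 32 to 33 germline genes called higher at D8 than in EpiSC.

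In rES against ESC, the recovered naive cells against the reference, 16 of 36 genes were called higher and Syce2 lower, where 15.6% and 17.9% of all genes were. The median log2 difference was 0.84, and that of all genes 0.00. For 28 genes all 3 rES libraries lay above all 3 of ESC, as for 26.4% of all genes. The count depends on the fit: with these 2 groups fitted alone 27 were higher and 2 lower, where 3932 and 3916 of 15167 genes were, and leaving out 1 library gave 12 to 14 higher and 0 or 1 lower. The higher genes were 4 of 12 piRNA genes, 2 of 11 meiotic chromosome genes, 5 of 8 regulators and 5 of 5 others.

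Tuba3b differed most, at 26.9 ± 0.983 CPM in rES and 3.59 ± 0.653 in ESC (SD, n = 3), 7.51-fold (log2 difference 2.90 ± 0.32, adjusted p = 1.09e-05 by edgeR). Tex101 was 5.64-fold higher (2.49 ± 0.50), Brdt 2.95-fold (1.56 ± 0.21), Stra8 2.86-fold (1.52 ± 0.20), Slc25a31 2.83-fold (1.48 ± 0.34), Tuba3a 2.45-fold (1.29 ± 0.21) and Sohlh2 2.01-fold (1.01 ± 0.22). Dazl was 2.53-fold higher (log2 difference 1.34 ± 0.26, adjusted p = 7.58e-04) and Fkbp6 2.82-fold (log2 difference 1.495 ± 0.31, adjusted p = 0.00154); DESeq2 called neither, at 0.352 and 0.149. Tex19.1 was 1.48-fold higher (log2 difference 0.57 ± 0.12, adjusted p = 0.00145), with 180.1 ± 6.60 and 122 ± 5.28 CPM.

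Of the 16 calls of genes that reached 5 CPM, 7 were lost when single libraries were left out. Syce1 (0.60 ± 0.20, adjusted p = 0.0418) lost its call without any 1 of the 6 libraries (0.0561 to 0.141). Hormad1 (0.84 ± 0.25) lost it without rES replicate 2 or ESC replicate 1 or 2 (0.0671 to 0.0700), and Mael (1.30 ± 0.37) without rES replicate 1 or ESC replicate 1 or 3 (0.0558 to 0.0643). Piwil2 (0.62 ± 0.18) lost it without rES replicate 1 (0.0541) and Rbmxl2 (0.92 ± 0.28) without ESC replicate 3 (0.0606). Prdm1 (0.42 ± 0.12) lost it without ESC replicate 1 or rES replicate 3 (0.0525 and 0.0571). The lower call, Syce2 (log2 difference -0.31 ± 0.10, adjusted p = 0.0194), was lost without ESC replicate 2 or rES replicate 1 or 3 (0.0640 to 0.0911).

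Among the genes not called, the log2 difference was -0.19 ± 0.58 for Ddx4, -0.27 ± 0.31 for Tex11, 0.22 ± 0.24 for Mov10l1, 0.04 ± 0.17 for Stag3 and 1.23 ± 0.46 for Asz1 (adjusted p = 0.0513). Other RNA also differed between rES and ESC. Of 8 fibroblast markers 5 were called lower in rES than in ESC, as were 17.9% of all genes. Col1a1 averaged 2.92 CPM in rES and 79.2 in ESC and Col3a1 0.116 and 19.7, while Fn1 averaged 2608 and 2247. The summed level of all 8 was 2592 to 2687 CPM in rES and 2321 to 2460 in ESC, most of it Fn1, and Dcn was listed at 0 in rES. The 7 markers of 2-cell-like cells summed to 17.6 to 20.8 CPM in rES and 44.6 to 47.7 in ESC. The part of either in the differences of the germline genes was not tested.

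**Figure D5:**
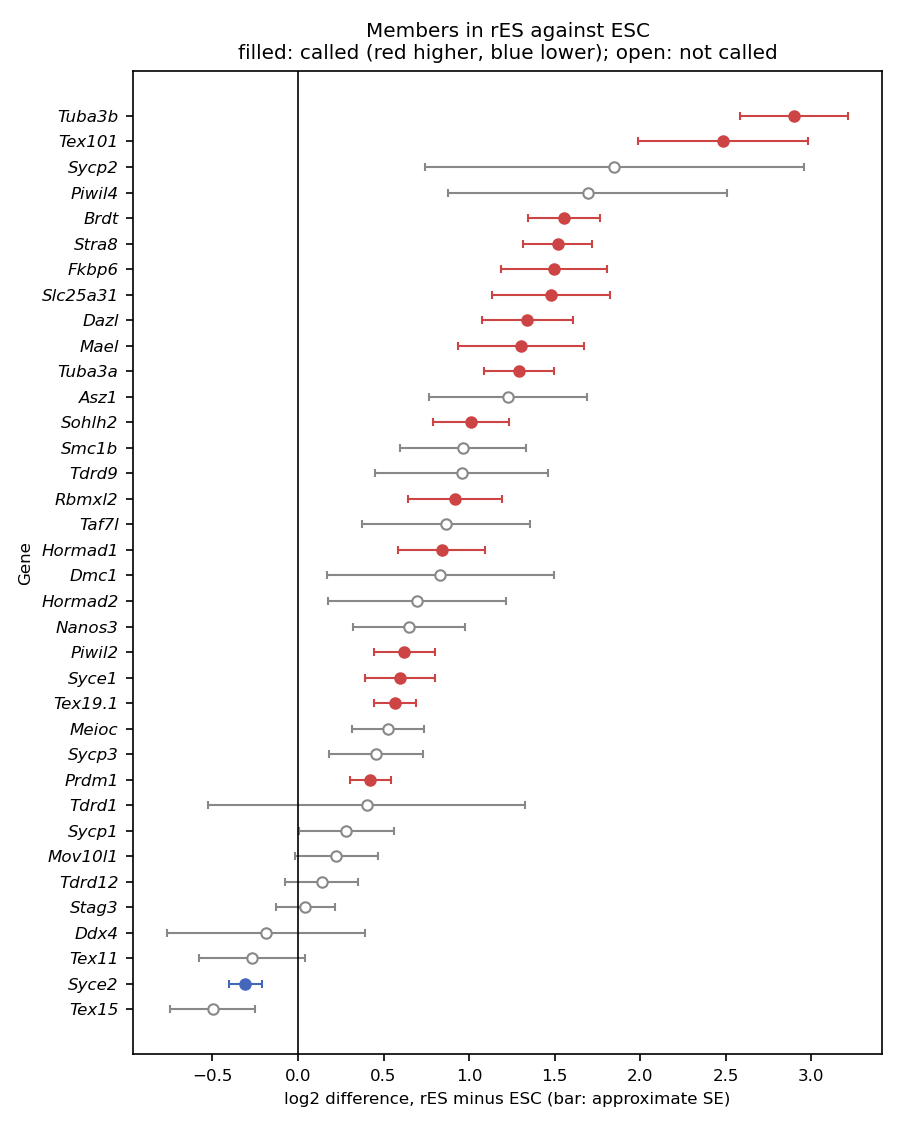
Log2 difference, rES minus ESC, of the 36 tested germline genes, with approximate standard errors as bars; filled points passed adjusted p under 0.05 and open ones did not. Most points lie right of 0, Tuba3b and Tex101 farthest; Syce2 is the filled point on the left.

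Further genes of the same pathways, listed by role, moved in both directions. Of 17 tested other piRNA genes, 11 were higher and 4 lower in rES than in EpiSC, with a median log2 difference of 4.66 against -0.09 for all genes, of which 31.9% were higher and 37.5% lower. Morc1, a transposon silencing ATPase, averaged 0.174 CPM in EpiSC, 35.0 at D8 and 143 in rES, and Rnf17 0.555 and 92.8 CPM in EpiSC and rES. Gpat2 averaged 0.163, 36.4 and 16.6 CPM in EpiSC, rES and ESC, and Pld6, the nuclease that cuts piRNA precursors, 0.0363 and 9.29 CPM in EpiSC and rES. Of 24 tested other meiotic genes, 13 were higher and 6 lower (median 1.95). The meiotic cohesin Rec8 averaged 0.296 CPM in EpiSC, 7.72 at D8 and 30.2 in rES, Hsf2bp 0.636 and 52.5 in EpiSC and rES, and Rec114, a partner of the break machinery, 0.0584 and 16.2. At D3 1 of these 24 was higher and 10 lower, against 34.1% and 30.2% of all genes. Of 19 tested other germ cell and primordial germ cell genes 13 were higher and 3 lower (median 3.64). Dppa3 averaged 31.3, 76.6 and 18.9 CPM at D8, in rES and in ESC, Prdm14 0.0675 and 73.6 in EpiSC and rES, Stk31 0.0415 and 71.0, and Tfap2c 2.10 and 164.

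Genes for the machinery known to silence germline promoters, and for the opposed demethylation of DNA, were also measured. Of 8 DNA methylation genes 3 were higher and 3 lower at D8 than in EpiSC, where 42.4% and 34.5% of all genes were. In rES 5 were higher and 3 lower, where 31.9% and 37.5% of all genes were. All 8 summed to 2210 to 2426 CPM in EpiSC and 1805 to 1942 in rES. De novo DNA methyltransferase Dnmt3b was also among the primed markers above. It averaged 1248 CPM in EpiSC, 105 at D3, 38.3 at D5, 54.1 at D8, 138 in rES and 71.5 in ESC. It was higher in rES than in ESC (log2 difference 0.95 ± 0.09, adjusted p = 3.45e-07). The demethylating enzymes Tet1 and Tet2 averaged 117 and 6.76 CPM in EpiSC and 531 and 49.5 in rES, with Tet2 lower in rES than in ESC (log2 difference -1.24 ± 0.26, adjusted p = 0.00121). Of 14 PRC1.6 genes, 2 were higher and 11 lower at D8 than in EpiSC, and 6 higher and 6 lower in rES, where 42.4% and 34.5% of all genes were at D8 and 31.9% and 37.5% in rES. E2f6 averaged 83.7 CPM in EpiSC, 35.0 at D8 and 31.2 in rES (log2 difference -1.42 ± 0.11, adjusted p = 1.79e-09), and Max 50.4 in EpiSC and 179 at D8 (log2 difference 1.83 ± 0.08, adjusted p = 8.76e-13). Of 8 genes of the H3K9 methylation pathway 5 were higher and 3 lower in rES, Setdb1 averaging 129 CPM in EpiSC and 232 in rES (log2 difference 0.85 ± 0.07, adjusted p = 5.58e-09). Whether any of these levels bears on the germline genes was not tested.

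Set against the promoter letters printed above, the calls ran as follows. In rES against EpiSC, 14 of 15 germline genes with an E-box were higher, 13 of 15 with an E2F6 motif and 12 of 12 with neither. Among all tested genes with a window, 37.7% of those with an E-box, 31.1% of those with an E2F6 motif and 32.0% of those with neither were higher. At D3 against EpiSC, 0 of 15 with an E-box were higher and 4 lower, while 5 of 12 with neither motif were higher and 2 lower. The 5 were Asz1, Hormad2, Stra8, Nanos3 and Prdm1. Mael, Mov10l1 and Slc25a31 with an E-box, and Sohlh2 and Syce1 with neither motif, had no count in either group and could not be called. Ddx4, Fkbp6, Hormad1, Rbmxl2 and Taf7l with an E-box, and Asz1, Dazl, Sycp2 and Tex101 with neither, averaged under the floor in both groups. The D3 counts of these classes thus depend on detection. Of 15 with an E2F6 motif 1 was higher and 6 lower, where 35.1% and 33.8% of all genes with that motif were. Over all genes at D3, 37.8% with an E-box were higher and 30.0% lower, and 33.4% with neither were higher and 28.9% lower, so the shares of germline genes higher with neither motif and lower with an E-box were near those of all genes. These few genes carry no test.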

How the data were processed

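Total RNA, depleted of ribosomal RNA, was sequenced as paired reads from 18 libraries, per the labels' protocols. The deposited table of the authors holds expected counts, whole numbers for 25239 symbols; mm10, HISAT2, Trim Galore and bcl2fastq are named, per the submitters' processing notes, without their settings. How reads were counted, on which annotation and with which strand is not given in the sources used here. Because low counts bunch at 4 and 8 a count may not be 1 read.

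All 18 libraries were fitted together with edgeR 4.0.16 in R 4.3.3 (filterByExpr, TMM scaling, quasi-likelihood F test, prior count 2), and p-values were adjusted by Benjamini-Hochberg within each of 9 comparisons (17545 genes); standard errors are the log2 difference over the root of F and so approximate. CPM use TMM-scaled totals. DESeq2 1.42.0, RLE scaling, no filter, a replicate block, counts over 4, fits of a single pair of groups and omission of each library were alternatives. On simulated counts for ESC against EpiSC (17074 genes), 38.4% of 73 changes of 1.5-fold, 58.1% of 62 of 2-fold and 81.5% of 65 of 4-fold were recovered. Far fewer genes changed there than were called between the real groups, so these rates need not hold for the data. Exon lengths and overlaps came from GENCODE vM21 (GRCm38), promoters from RefSeq, and transcript identities from BLAST 2.17.0.

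The genes and lists were chosen with earlier results of these data known. Values are printed for every library where the highest group mean reached 5 CPM, which 30 genes did. Dmc1 was added to these after its values were seen, and the other 6 are given by means. The further lists held other piRNA, other meiotic, other germ cell, PRC1.6, DNA methylation and H3K9 genes. They also held markers of naive, primed and shared pluripotency and of trophoblast, fibroblast, 2-cell-like, spermatid, oocyte and gonadal cells. From each list up to 4 called genes with the largest difference were eligible in each comparison.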

Additional observations from a re-analysis of the deposited data

How the results depend on the processing

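None of the 204 calls of the genes with at least 5 CPM changed direction under an alternative that gave a value. Differences that were not called, and those of genes under 5 CPM, were not checked for this. Of the 204 calls, 179 held in every setting that gave a value. RLE scaling and no filter kept all 204, DESeq2 kept 200, counts divided by 4 kept 197, and a fit of only the groups compared kept 190 of 195. Omitting 1 library at a time kept 1176 of 1224. Fitted with only the groups compared, 4 genes in place of 7 were higher at D3 than in EpiSC, 9 in place of 15 at D5 than at D3, and 27 in place of 16 in rES than in ESC, with 2 in place of 1 lower there; counts divided by 4 and DESeq2 also gave 2 lower. In ESC against EpiSC 1 gene in place of 2 was lower without a filter, with RLE scaling and with the replicate block. The cause was not tested.

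Without 1 library, 1 to 2 genes were lower in ESC than in EpiSC, 0 to 1 lower in rES than in ESC and 12 to 14 higher there. Without 1 library 6 to 8 were higher than EpiSC at D3, 12 to 16 at D5, 32 to 33 at D8, 33 to 34 in rES and 32 to 33 in ESC, where the full fit gave 7, 15, 32, 34 and 32.

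Equal replicate numbers did not pair the libraries: over 45 same-number pairs the residuals had a median correlation of 0 (-0.061 to 0.053), and 6 of 18 libraries lay closest to one of their own number. With the replicate block 203 of the 204 calls held; Syce1 in rES against ESC had an adjusted p of 0.0543. Levels under about 12 counts a library, 0.169 to 0.197 CPM, are not told from 0, which limits the statements on EpiSC, D3 and D5.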

Other observations

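Some germ cell genes outside the 37 had their highest level in the transient groups; these were singled out after their values were seen. Rhox6, a homeobox gene of the X-linked reproductive cluster that is also made in placenta, averaged 0.0779 CPM in EpiSC, 32.8 at D3, 229 at D5, 145 at D8, 3.41 in rES and 0.985 in ESC. Its neighbour Rhox9 averaged 150.4 CPM at D5 and 113 at D8 but 2.89 in rES. Tdrd7, a Tudor protein of germ granules and of the lens, rose from 5.92 CPM in EpiSC to 100.4 at D5 and 146 at D8 (log2 difference 4.62 ± 0.16, adjusted p = 1.32e-14 by edgeR) and fell to 3.26 in rES (log2 difference -5.48 ± 0.16, adjusted p = 4.50e-15 by edgeR). Zbtb16, a factor of spermatogonial stem cells and of other tissues, averaged 1.22 CPM in EpiSC, 18.1 at D5, 11.4 at D8 and 1.26 in rES. Trophoblast markers were high in the same groups, and their part in these levels was not tested.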
